A study of Mus musculus with 4 samples.

Results

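Prostaglandins and leukotrienes are lipid mediators made from arachidonic acid, a fatty acid that cytosolic phospholipase A2 cuts from membrane phospholipids. Cyclooxygenases turn it into prostaglandin H2, from which prostaglandin E synthases make prostaglandin E2 (PGE2), a mediator known to restrain T cells. In neutrophils, 5-lipoxygenase and its activating protein turn the same fatty acid into leukotriene A4, which leukotriene A4 hydrolase converts to the chemoattractant leukotriene B4. The 10 genes described here encode these steps or, for *Hpgd*, the inactivation of PGE2. They were taken by symbol from the 28585 genes listed for each library: *Pla2g4a*, *Ptgs1*, *Ptgs2*, *Ptges*, *Ptges2*, *Ptges3*, *Hpgd*, *Alox5*, *Alox5ap* and *Lta4h*. Each symbol matched 1 gene identifier, and all 10 passed the filter on low values.

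The libraries were 4 bulk RNA sequencing libraries of PMN-MDSCs (polymorphonuclear myeloid-derived suppressor cells), neutrophil-like cells that suppress T cells, sorted as CD11b+ Ly6C lo/- Ly6G+ cells from the spleens of C57BL/6J pups on postnatal day 7. There were 2 libraries of Dhps cko and 2 of Dhps flox, and both genotypes carry a floxed *Dhps* on both alleles. The study describes the genotypes as littermates, and the sources do not say which libraries shared a litter. *Dhps* encodes deoxyhypusine synthase, the enzyme that uses spermidine to start the hypusine modification of the translation factor eIF5A. The Dhps cko pups also carry a Cre recombinase driven by the *Lysm* (*Lyz2*) locus, which is active in myeloid cells in general and not in PMN-MDSCs alone. The sources do not say how many pups gave each library, so p-values here measure the spread between these libraries. The study states that pups of both sexes were used. It also assayed cellular PGE2 in PMN-MDSCs of these genotypes, and those values were not analysed here.

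Levels are FPKM, which count fragments relative to the length of a transcript and to the size of the library, so they can be compared between genes. *Dhps*, the targeted gene, was at 2.38 FPKM in replicate 1 and 2.59 FPKM in replicate 2 of Dhps cko, and at 3.57 and 3.11 FPKM in those of Dhps flox. Both Dhps cko libraries were lower, with a log2 fold change of -0.41 (standard error 0.13, adjusted p = 0.63 from limma). Of its exon bases, 5.51% overlap *Wdr83* on the other strand, which was at 5.05 to 6.09 FPKM. The spacing of the lowest FPKM values gave approximate depths between 29300000 and 32100000 fragments per library. The 12 neutrophil markers together held 77526 and 79945 FPKM in Dhps cko against 77509 and 73002 FPKM in Dhps flox, and 10 of the 12 had a log2 fold change above 0. The 10 monocyte and macrophage markers together held 379 to 384 FPKM in Dhps cko and 315 to 319 FPKM in Dhps flox, and all 10 had a log2 fold change above 0. B cell markers summed to 62.8 and 65.4 FPKM in Dhps cko against 40.3 and 49.4 in Dhps flox (6 of 6 with a log2 fold change above 0), and T cell markers to 15.5 and 12.3 against 9.32 and 6.41 (6 of 6). Eosinophil markers summed to between 92.2 and 97.0 FPKM in Dhps cko and between 79.3 and 81.4 in Dhps flox (6 of 6 above 0), mast cell and basophil markers to 21.2 and 22.6 against 9.99 and 22.5 (4 of 7), and dendritic cell markers to 4.92 and 4.32 against 3.05 and 3.82 (4 of 4 tested). The erythroid sums, 455 and 545 FPKM against 371 and 557, overlapped between genotypes (6 of 6 above 0), as did the platelet sums given with *Ptgs1* below. No marker was at 0 in all 4 libraries. Of the 17948 genes tested, 9368 had a log2 fold change above 0 and 8578 below. Unadjusted p in limma was under 0.05 for 5 of 10 monocyte and macrophage, 4 of 6 B cell and 3 of 6 T cell markers. It was so for 2 of 6 eosinophil and 1 of 12 neutrophil markers, and for 0 in each other cell type list, against 7.0% of all genes tested. The 4 Y-linked genes tested summed to 7.07 and 8.07 FPKM in Dhps cko and to 17.6 and 15.6 FPKM in Dhps flox. With *Xist*, expressed in female cells, the sum was 34.6 and 28.3 FPKM in Dhps cko and 33.9 and 32.8 FPKM in Dhps flox. Each library thus held both Y-linked and *Xist* signal, as a pool of male and female pups would. For the results below, genotype and the mix of sexes cannot be told apart.

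The leukotriene genes were by far the most abundant of the 10. *Alox5ap*, *Lta4h* and *Alox5* ranked 61, 174 and 212 by mean level among the 17948 genes tested, and together they made up between 87.5% and 88.4% of the summed FPKM of the 10 genes in each library. *Ptgs1* came next, at rank 632. *Ptges*, *Hpgd* and *Ptges3* lay close together at ranks 3326, 3654 and 3882, with library values that overlapped between *Ptges* and *Hpgd* and between *Hpgd* and *Ptges3*. They were followed by *Pla2g4a* at rank 5976 and *Ptges2* at rank 7853. *Ptgs2* was the least abundant, at rank 11166.

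**Figure D1:**
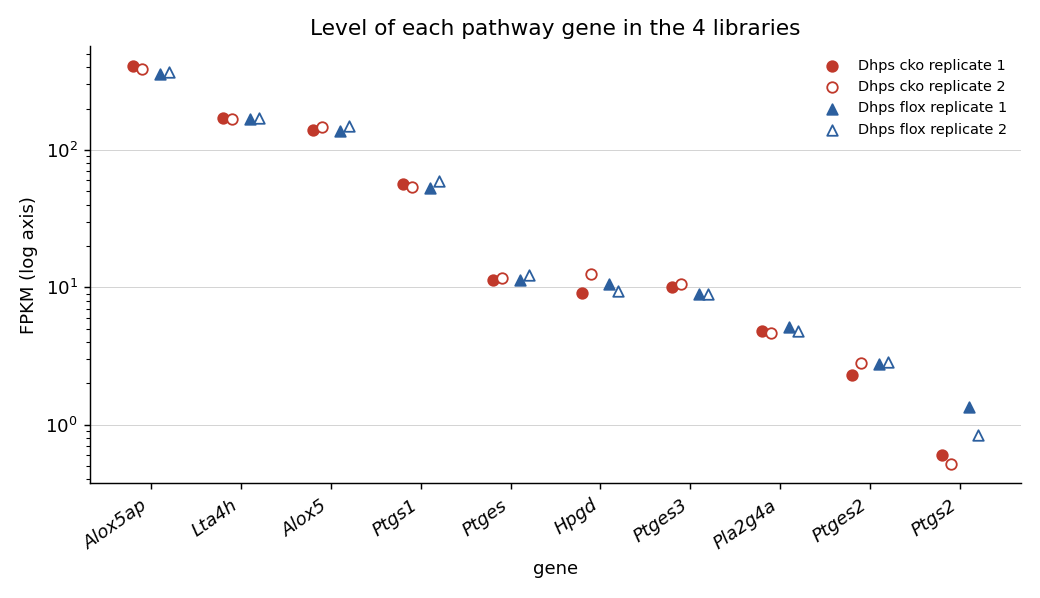
FPKM on a log axis (y) of each of the 10 genes (x, in order of mean level) in the 2 Dhps cko libraries (circles) and the 2 Dhps flox libraries (triangles), with replicate 1 filled and replicate 2 open. Levels run from 0.52 FPKM for *Ptgs2* to 410 FPKM for *Alox5ap*, and the points of the 2 genotypes are apart for *Ptgs2*, *Ptges3* and *Alox5ap*.

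The genotypes were set against each other by limma, applied to log2(FPKM + 0.1) of all 17948 genes tested, and fold changes on this scale understate the change of genes with low FPKM. After Benjamini-Hochberg adjustment, 0 of the 10 genes passed 0.05 in limma, where 0.00557% of all genes tested did, which is 1 gene. Without adjustment, 2 of the 10 had p under 0.05 in limma, *Ptgs2*, which was lower in Dhps cko, and *Ptges3*, which was higher, against 7.0% of all genes tested (4.72% higher and 2.28% lower). The 2 genotypes did not overlap for 3 of the 10 genes, *Ptgs2*, *Ptges3* and *Alox5ap*, against 36.0% of all genes tested (20.0% with Dhps cko above and 16.0% with Dhps cko below), so the share of separated genes was close to the background. For the 10 genes the log2 fold changes had a median of -0.02, and for all genes tested 0.01. With 2 libraries per genotype, the smallest p of an exact permutation test is 0.33.

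**Figure D2:**
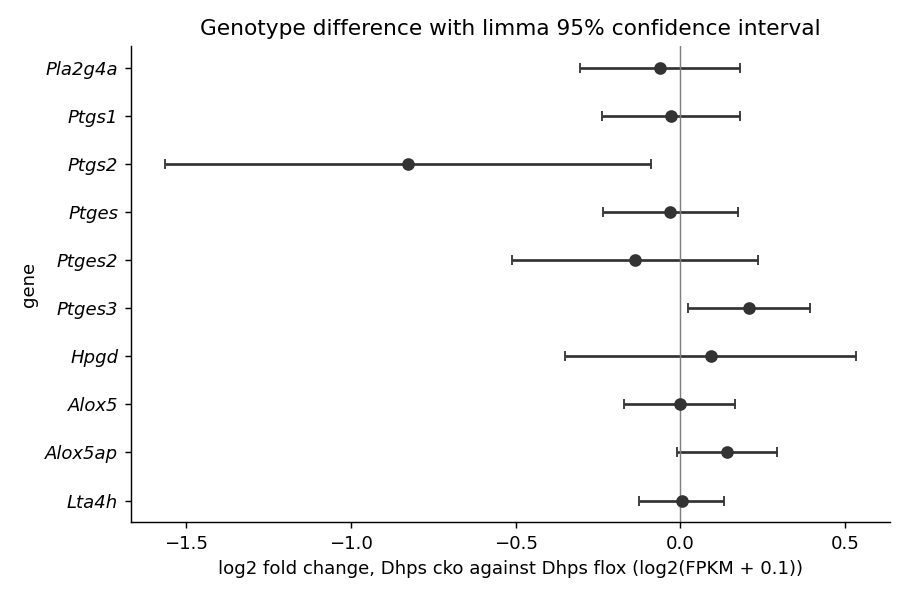
Log2 fold change of Dhps cko against Dhps flox (x) for each of the 10 genes (y), with the 95% confidence interval from limma as bars (2 libraries per genotype). The interval of *Ptgs2* is the widest and lies below 0, that of *Ptges3* lies above 0, and the other 8 include 0.

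*Pla2g4a* encodes cytosolic phospholipase A2, the enzyme that releases arachidonic acid. It lies on chromosome 1 of GRCm38 from 149829618 to 149961290 on the minus strand (GENCODE M21), 138.7 kb from *Ptgs2*, with 0 protein-coding genes between them. It was at 4.82 and 4.66 FPKM in Dhps cko and 5.13 and 4.78 FPKM in Dhps flox. The genotypes overlapped, with a log2 fold change of -0.06 (95% interval -0.30 to 0.18, adjusted p = 0.93 from limma). Of these neighbouring genes, *Ptgs2* therefore had the larger difference between genotypes, although the 2 differences were not tested against each other.

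*Ptgs1* encodes cyclooxygenase-1, the form most cells make without a stimulus, and *Ptgs2* encodes cyclooxygenase-2, the form that stimuli such as bacterial products are known to induce. The 250 bases before the start of each gene in RefSeq (GRCm38.p6, plus strand for both) are shown because the cyclooxygenases differ so widely in level in these cells. Capitals mark matches, on either strand, to any of 7 motifs, which were the cAMP response element core TGACGT, the enhancer box motif CACGTG, the palindrome bound by C/EBP proteins TTGCGCAA, the promoter motif TATAAA known as the TATA box, the Sp1-binding motif GGGCGG known as the GC box, the AP-1 motif TGANTCA and the NF-κB consensus.
*Ptgs2*, chr1:150099781-150100030: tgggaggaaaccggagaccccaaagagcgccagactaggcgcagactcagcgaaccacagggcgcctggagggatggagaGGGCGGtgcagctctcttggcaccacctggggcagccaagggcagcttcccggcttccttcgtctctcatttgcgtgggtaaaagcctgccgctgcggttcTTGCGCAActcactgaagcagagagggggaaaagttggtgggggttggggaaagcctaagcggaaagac
*Ptgs1*, chr2:36230176-36230425: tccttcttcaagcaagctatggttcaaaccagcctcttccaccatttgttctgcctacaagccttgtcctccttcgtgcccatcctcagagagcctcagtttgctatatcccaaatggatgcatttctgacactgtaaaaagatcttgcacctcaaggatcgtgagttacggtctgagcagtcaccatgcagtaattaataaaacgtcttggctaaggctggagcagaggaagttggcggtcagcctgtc
The *Ptgs2* stretch held a GC box and the palindrome TTGCGCAA, whose first base lies 69 bases before the start. This palindrome was found in 0.183% of the 32851 windows of all genes, which run from 250 bases before to 50 bases after a start, and a GC box in 35.7%. In the 50 bases after the *Ptgs2* start, not printed here, TGACGT and CACGTG matched at bases 13 and 17, where they overlap, and these motifs were in 7.51% and 7.15% of all windows. No match to the 7 motifs was found in the *Ptgs1* stretch. The TATA box, the AP-1 site and this form of the NF-κB motif, with no match in the window of either gene, were in 13.6%, 7.81% and 0.411% of all windows. Such matches describe the letters and do not show that a factor was bound.

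*Ptgs1* (chromosome 2, 36230426 to 36252272, plus strand) was at 56.6 and 53.4 FPKM in Dhps cko and 52.6 and 59.7 FPKM in Dhps flox. The 2 Dhps cko libraries lay within the range of the Dhps flox libraries, and the log2 fold change was -0.03 (95% interval -0.24 to 0.18, adjusted p = 0.97 from limma). Platelets are known for their cyclooxygenase-1, and the 6 platelet and megakaryocyte markers together held 3.17 and 2.34 FPKM in Dhps cko and 1.66 and 4.43 FPKM in Dhps flox, with *Gp1bb* and *Treml1* below the filter on low values. The part of platelets in the *Ptgs1* level was not tested. Of the exon bases of *Ptgs1*, 3.81% overlap the gene model *Gm43621* on the other strand, which was at 1.81 to 2.35 FPKM.

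*Ptgs2* (chromosome 1, 150100031 to 150108227, plus strand) was at 0.60 and 0.52 FPKM in Dhps cko and 1.35 and 0.84 FPKM in Dhps flox. Both Dhps cko libraries were lower than both Dhps flox libraries, and the Dhps cko mean was 51.1% of the Dhps flox mean. The log2 fold change was -0.83 (standard error 0.29, 95% interval -1.56 to -0.09, unadjusted p = 0.035 and adjusted p = 0.67 from limma). On the same log2 scale, the Dhps flox replicates differed from each other by 0.63 and the Dhps cko replicates by 0.18. The direction stayed the same with each library left out, but the log2 fold change ran from -1.14 without Dhps flox replicate 2 to -0.51 without Dhps flox replicate 1. The unadjusted p in limma was 0.022 without Dhps flox replicate 2 and between 0.12 and 0.19 without any other library, in fits where the lone library of a genotype is assumed to vary like those of the other.

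At the approximate depths, the *Ptgs2* values stand for about 86 and 73 fragments in Dhps cko replicates 1 and 2 and about 184 and 110 fragments in Dhps flox replicates 1 and 2. The exact Poisson 95% intervals, which cover counting error only, were 68.8 to 106.2 and 57.2 to 91.8 fragments in Dhps cko, and 158.4 to 212.6 and 90.4 to 132.6 fragments in Dhps flox. Scaled to FPKM, the interval of Dhps flox replicate 1 (1.16 to 1.56) lay above those of the other 3 libraries. That of Dhps flox replicate 2 (0.690 to 1.01) overlapped Dhps cko replicate 1 (0.480 to 0.741) but not Dhps cko replicate 2 (0.408 to 0.654). Per length, *Ptgs1* was 94.3 and 103 times as abundant as *Ptgs2* in Dhps cko and 39.0 and 71.1 times in Dhps flox. *Ptgs2* therefore made up 1.05% and 0.965% of the summed cyclooxygenase FPKM in Dhps cko, and 2.50% and 1.39% in Dhps flox.

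**Figure D3:**
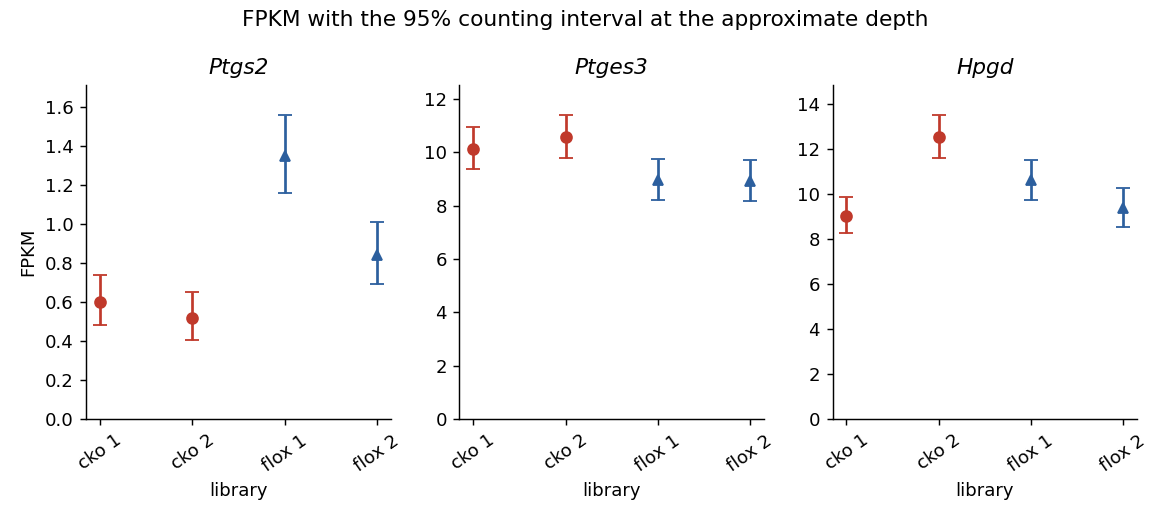
FPKM (y) of *Ptgs2*, *Ptges3* and *Hpgd* in each library (x; circles for Dhps cko, triangles for Dhps flox), with the 95% counting interval at the approximate depth as bars. *Ptgs2* was highest in Dhps flox replicate 1 at 1.35 FPKM, *Ptges3* was higher in both Dhps cko libraries, and *Hpgd* differed most between the 2 Dhps cko libraries.

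The prostaglandin E synthases turn prostaglandin H2 into PGE2 and are encoded by *Ptges* (the inducible microsomal enzyme), *Ptges2* (a membrane-associated enzyme) and *Ptges3* (the cytosolic enzyme, also known as the HSP90 co-chaperone p23). *Ptges* (chromosome 2, 30889471 to 30929863, minus strand) was at 11.4 and 11.7 FPKM in Dhps cko and 11.2 and 12.4 FPKM in Dhps flox. Its genotypes overlapped, with a log2 fold change of -0.03 (95% interval -0.24 to 0.17, adjusted p = 0.96 from limma). *Ptges2* (chromosome 2, 32395896 to 32405772, plus strand) was at 2.28 and 2.80 FPKM in Dhps cko and 2.74 and 2.84 FPKM in Dhps flox. These values overlapped too, with a log2 fold change of -0.14 (95% interval -0.51 to 0.24, adjusted p = 0.88 from limma).

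*Ptges3* (chromosome 10, 128058954 to 128077272, plus strand) was at 10.1 and 10.6 FPKM in Dhps cko and 8.95 and 8.93 FPKM in Dhps flox. Both Dhps cko libraries were higher than both Dhps flox libraries, and the Dhps cko mean was 116% of the Dhps flox mean. The log2 fold change was 0.21 (standard error 0.07, 95% interval 0.02 to 0.39, unadjusted p = 0.034 and adjusted p = 0.67 from limma). With 1 library left out, under the same assumption, the unadjusted p in limma lay between 0.061 and 0.11. The *Ptges3* difference is uncertain because the processed pseudogene *Ptges3-ps* on chromosome 6 is identical to a *Ptges3* transcript over all of its 480 bases, so reads could be split between them. *Ptges3-ps* was at 12.7 and 14.3 FPKM in Dhps cko and 13.0 and 14.7 FPKM in Dhps flox, and weighted by length it held between 23.1% and 28.3% of the signal of both. Summed in this way, the 2 genes in Dhps cko were at 111% of their Dhps flox mean, and the genotypes still did not overlap. *Ptges* held between 46.6% and 51.2% of the summed FPKM of the 3 synthases in a library, and the share of *Ptges3* was 42.6% and 42.2% in Dhps cko against 39.0% and 37.0% in Dhps flox.

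*Hpgd* encodes the 15-hydroxyprostaglandin dehydrogenase that inactivates PGE2. It lies on chromosome 8 from 56294585 to 56321043 on the plus strand. It was at 9.04 and 12.5 FPKM in Dhps cko and 10.6 and 9.38 FPKM in Dhps flox. The 2 Dhps cko libraries lay on either side of the Dhps flox libraries, and the log2 fold change was 0.09 (95% interval -0.35 to 0.53, adjusted p = 0.95 from limma). The Dhps cko replicates differed from each other by 0.46 on the log2 scale, with about 488 and 667 fragments. Without Dhps cko replicate 2 the log2 fold change turned to -0.14.

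*Alox5* encodes 5-lipoxygenase, *Alox5ap* the membrane protein FLAP that presents arachidonic acid to it, and *Lta4h* the hydrolase that makes leukotriene B4. *Alox5* (chromosome 6, 116410077 to 116461178, minus strand) was at 140 and 146 FPKM in Dhps cko and 137 and 149 FPKM in Dhps flox. *Lta4h* (chromosome 10, 93453411 to 93484875, plus strand) was at 170.0 and 168 FPKM in Dhps cko and 167 and 170.1 FPKM in Dhps flox. Both genes overlapped between genotypes and had narrow intervals around 0, with log2 fold changes of 0.00 (95% interval -0.17 to 0.17) for *Alox5* and 0.00 (-0.13 to 0.13) for *Lta4h* (adjusted p = 1.00 and 0.99 from limma).

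*Alox5ap* (chromosome 5, 149264767 to 149288153, plus strand) was at 410 and 391 FPKM in Dhps cko and 356 and 370 FPKM in Dhps flox. Both Dhps cko libraries were above both Dhps flox libraries, and the Dhps cko mean was 110% of the Dhps flox mean. The log2 fold change was 0.14 (standard error 0.06, 95% interval -0.01 to 0.29, unadjusted p = 0.061 and adjusted p = 0.74 from limma), and after quantile normalization the genotypes overlapped. Macrophages and eosinophils are also known to express *Alox5ap*. The monocyte and macrophage markers were at 384 and 379 FPKM in Dhps cko against 315 and 319 FPKM in Dhps flox. These and the eosinophil markers were also higher in both Dhps cko libraries. The neutrophil sum was nearly the same in replicate 1 of Dhps cko and of Dhps flox (77526 and 77509 FPKM). In replicate 2 it was 79945 and 73002 FPKM. The part of these cell types in the *Alox5ap* difference was not tested. In bulk samples, a changed number of cells of a type and a changed amount of RNA per cell cannot be told apart. Of the exon bases of *Alox5ap*, 13.3% overlap the antisense gene *Gm19719*, which was at 6.16 to 8.33 FPKM, and the sources do not say whether strand was used in counting. The ratio of *Alox5ap* to *Alox5* FPKM was 2.93 and 2.67 in Dhps cko and 2.59 and 2.48 in Dhps flox.

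The other genes of the pathway were taken from 8 lists by role. Of 75 such genes in the files, 62 passed the filter on low values. By limma, 0 of the 62 passed 0.05 after adjustment, and 3 did so before it, namely *Pla2g7*, *Ptgir* and *Ptger2*, against 7.0% of all genes tested. The genotypes did not overlap for 22 of the 62 genes, with Dhps cko above in 13 and below in 9, against 36.0% of all genes tested. Their log2 fold changes had a median of 0.00, with 31 above 0 and 31 below.

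**Figure D4:**
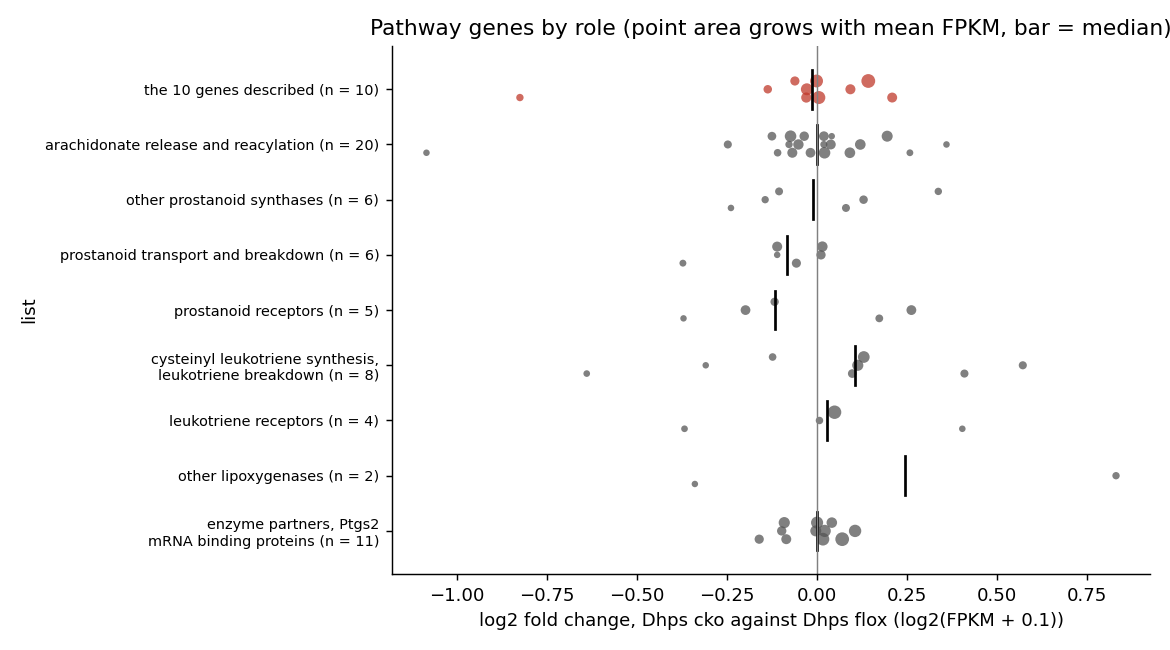
Log2 fold change of Dhps cko against Dhps flox (x) of each gene tested, by list (y), with the 10 genes described in red, the 62 other pathway genes in grey, point area growing with mean FPKM and a bar at each list's median. The values farthest from 0 on each side, -1.08 and 0.83, belong to small points with low FPKM.

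The prostanoid receptors are how cells sense prostaglandins, and 5 of the 9 were tested. *Ptger2*, which encodes the PGE2 receptor EP2, was at 7.27 and 7.47 FPKM in Dhps cko and 8.38 and 8.57 FPKM in Dhps flox. Both Dhps cko libraries were lower, with a log2 fold change of -0.20 (95% interval -0.39 to -0.0048, unadjusted p = 0.046 and adjusted p = 0.70 from limma). *Ptgir*, which encodes the prostacyclin receptor, was at 9.33 and 9.21 FPKM in Dhps cko and 7.50 and 7.94 FPKM in Dhps flox, higher in both Dhps cko libraries. Its log2 fold change was 0.26 (95% interval 0.06 to 0.46, unadjusted p = 0.019 and adjusted p = 0.60 from limma). The other receptor genes tested were *Ptger1*, *Ptger4* and *Ptgdr2*, with means between 0.11 and 2.32 FPKM and overlapping genotypes.

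Of the 4 leukotriene receptor genes tested, *Ltb4r1*, which encodes the high-affinity leukotriene B4 receptor BLT1, was the most abundant, at 257 and 274 FPKM in Dhps cko and 244 and 270 FPKM in Dhps flox. Its genotypes overlapped, with a log2 fold change of 0.05 (95% interval -0.14 to 0.24, adjusted p = 0.93 from limma). The other 3 had means of at most 0.933 FPKM, and 0 of the 4 had an unadjusted p under 0.05 by limma, against 7.0% of all genes tested. *Ltc4s*, the leukotriene C4 synthase gene, was at only 0.15 and 0.14 FPKM in Dhps cko and 0.21 and 0.37 FPKM in Dhps flox, whereas *Mgst2*, whose product can also make leukotriene C4, was at 27.4 and 29.5 FPKM and at 26.1 and 26.5 FPKM. *Cyp4f18*, which encodes a leukotriene B4 hydroxylase of neutrophils, was at 45.7 and 51.9 FPKM in Dhps cko and 42.8 and 46.3 FPKM in Dhps flox.

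The 20 genes tested of arachidonate release and reacylation were split evenly, with 10 above 0 and 10 below 0 and a median log2 fold change of 0.00. *Pla2g7*, which encodes the platelet-activating factor acetylhydrolase, was at 25.3 and 26.5 FPKM in Dhps cko and 23.0 and 22.2 FPKM in Dhps flox, with both Dhps cko libraries higher. Its log2 fold change was 0.19 (95% interval 0.04 to 0.35, unadjusted p = 0.025 and adjusted p = 0.63 from limma). The most abundant genes of the list were *Lpcat2* and *Acsl1*, which return fatty acids to phospholipids or activate them. *Lpcat2* was at 39.0 and 44.1 FPKM in Dhps cko and 41.0 and 40.8 FPKM in Dhps flox, with a log2 fold change of 0.02, and *Acsl1* at 39.9 and 38.4 FPKM against 40.2 and 42.3 FPKM, with a log2 fold change of -0.07. *Elovl5*, *Mboat7*, *Lpcat3*, *Lpcat1*, *Mgll*, *Pla2g15*, *Acsl4* and *Plaa* had log2 fold changes between -0.07 and 0.12, and their adjusted p in limma was at least 0.798.

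Among the other prostanoid synthases, 6 genes were tested, with means of at most 2.68 FPKM, a median log2 fold change of -0.01 and 0 of 6 with an unadjusted p under 0.05 by limma, against 7.0% of all genes tested. *Tbxas1*, the thromboxane synthase gene, was at 1.02 and 0.91 FPKM in Dhps cko and 0.68 and 0.81 FPKM in Dhps flox, and *Hpgds*, the hematopoietic prostaglandin D synthase gene, at 1.37 and 1.64 against 1.74 and 1.51 FPKM. The genotypes did not overlap for 0 of the 6 genes of prostanoid transport and breakdown, against 36.0% of all genes tested. *Abcc4*, which encodes a transporter that exports PGE2, was at 10.5 and 9.25 FPKM in Dhps cko and 9.76 and 11.7 FPKM in Dhps flox, and the reductase genes *Ptgr1* and *Ptgr2* had log2 fold changes of 0.01 and 0.01. Of the other lipoxygenases, 2 were tested, and *Alox15* was at 0.95 and 1.09 FPKM in Dhps cko and 0.33 and 0.82 FPKM in Dhps flox (log2 fold change 0.83, 95% interval -0.22 to 1.88, adjusted p = 0.77 from limma).

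The last list held 11 genes of enzyme partners and of proteins known to bind the *Ptgs2* mRNA, all of them tested, with log2 fold changes between -0.16 and 0.11 and 0 with an unadjusted p under 0.05 by limma, against 7.0% of all genes tested. *Cotl1*, whose product binds 5-lipoxygenase, was at 347 and 344 FPKM in Dhps cko and 319 and 340 FPKM in Dhps flox. *Zfp36*, which encodes the mRNA-destabilizing protein tristetraprolin, was at 124 and 125 FPKM in Dhps cko and 127 and 120 FPKM in Dhps flox, with a log2 fold change of 0.02 (95% interval -0.13 to 0.16). *Hsp90ab1* and *Hsp90aa1*, the HSP90 genes whose products p23 assists, had log2 fold changes of 0.11 and -0.09. The kinase genes *Mapk14* and *Mapkapk2* were at 0.02 and 0.00 on the same scale, and the RNA-binding protein genes *Zfp36l1*, *Khsrp*, *Celf2*, *Elavl1* and *Tia1* lay between -0.16 and 0.04.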

How the data were processed

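Bulk RNA sequencing was performed by the authors on PMN-MDSCs sorted from spleens on postnatal day 7, with 2 libraries per genotype. The authors filtered reads with Cutadapt, aligned them with HISAT2 to mm10 (per the labels) and calculated FPKM with StringTie and ballgown. The annotation release, the use of strand and a test for these libraries are not given in the sources used here. The deposited values are FPKM with 2 decimals. From them, log2(FPKM + 0.1) was taken for the 17948 genes that averaged 0.1 FPKM or more over the 4 libraries, and limma (version 3.58.1, R version 4.3.3) tested the genotype difference (mean-variance trend, no replicate block, Benjamini-Hochberg adjustment over all genes tested). The fit was tested on simulated data. FPKM hold no read counts, so tests on counts were not run.

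Depth was approximated from the step between low FPKM values in genes with 1 exon. Between 41.6% and 44.8% of these values lay near a whole fragment, where chance gives 30% for a depth fixed beforehand. The depth was chosen to bring these same values near whole fragments, so the share is no independent check. Fragments per gene used the longest annotated transcript and are therefore approximate. Coordinates came from GENCODE M21 (GRCm38), which holds 28511 of the 28585 gene identifiers, and promoter windows from RefSeq (GRCm38.p6), in which 9 of the 10 genes matched. The 10 genes, the lists and the tests were chosen with earlier results of these data known. The 10 genes, *Dhps* and, of the other pathway genes, those that averaged 5 FPKM or more or an unadjusted p under 0.05 were to be named, and other genes named were chosen after their values were seen. Alternatives changed the pseudocount, filter, scaling, variance model and block, or left out each library. Other steps ran in Python 3.11.15 (pandas 2.3.3, numpy 2.4.6) with exact intervals from scipy 1.17.1.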

Additional observations from a re-analysis of the deposited data

How the results depend on the processing

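The log2 fold changes of *Ptgs2*, *Ptges3*, *Alox5ap* and *Pla2g4a* kept their direction under every alternative run, from -1.14 to -0.42 for *Ptgs2* (at -0.42 with a pseudocount of 1, and not tested with a mean of at least 1 FPKM) and from 0.18 to 0.24 for *Ptges3*, with adjusted p in limma from 0.54 to 0.95 for both. None of the 10 genes and none of the other pathway genes had an adjusted p under 0.05 in limma under any alternative. The number of all genes with an adjusted p under 0.05 in limma was 1, and it was 0 with a pseudocount of 0.01, with no filter on low values, with the replicate block and, over the fits that left out 1 library, 0 to 0. It was 4 with a mean of at least 1 FPKM and 2 with quantile normalization. Of the 2 genes among the 10 with an unadjusted p under 0.05, 1 was left with no filter on low values and with a mean of at least 1 FPKM (*Ptges3*), and 1 after rescaling to the same sum, with no variance trend and with the replicate block (*Ptgs2*). Leaving out 1 library left 0 to 1, *Ptgs2* without Dhps flox replicate 2. These counts, chosen as alternatives after seeing the data, were of unadjusted p. *Ptgir*, *Ptger2* and *Pla2g7* no longer had an unadjusted p under 0.05 in limma with no variance trend (0.065, 0.11 and 0.13) or with the replicate block (0.051, 0.10 and 0.072), nor did *Pla2g7* after rescaling to the same sum (0.0503). Leaving out 1 library gave 0.026 to 0.082 for *Ptgir*, 0.064 to 0.12 for *Ptger2* and 0.046 to 0.11 for *Pla2g7*. In each fit without 1 library, the lone library was assumed to vary like the other genotype. *Pla2g4a* also stopped overlapping between genotypes after rescaling, by the same sum or by size factors, and after quantile normalization, where *Lta4h* stopped overlapping too and *Alox5ap* overlapped. With values rescaled to the same sum, the log2 fold change turned below 0 for *Lta4h* (-0.0277), *Acsl4* (-0.0132), *Lpcat2* (-0.0118), *Ptgr1* (-0.0176), *Ptgr2* (-0.0211), *Mapk14* (-0.0114) and *Zfp36* (-0.0162). With median-of-ratios size factors, the log2 fold change turned below 0 for *Lta4h* (-0.0068) and *Ptgr2* (-0.0005). With quantile normalization, the log2 fold change turned below 0 for *Lta4h* (-0.0854), *Lpcat2* (-0.0089), *Ptgr2* (-0.0074), *Ltb4r1* (-0.0047), *Mapk14* (-0.0276) and *Zfp36* (-0.0335). With each library left out in turn, genes whose direction turned ran from -0.12 to 0.0626 for *Ptgs1*, -0.0984 to 0.0376 for *Ptges*, -0.28 to 0.0052 for *Ptges2*, -0.14 to 0.32 for *Hpgd*, -0.0621 to 0.0584 for *Alox5*, -0.0098 to 0.0187 for *Lta4h*, -0.0605 to 0.0231 for *Pla2g15*, -0.11 to 0.039 for *Plaa*, -0.0376 to 0.11 for *Mgll*, -0.11 to 0.15 for *Acsl4*, -0.14 to 0.0058 for *Lpcat1*, -0.0692 to 0.11 for *Lpcat2*, -0.24 to 0.0159 for *Abcc4*, -0.0835 to 0.11 for *Ptgr1*, -0.0093 to 0.0302 for *Ptgr2*, -0.0254 to 0.12 for *Ltb4r1*, -0.19 to 0.0058 for *Hsp90aa1*, -0.0598 to 0.10 for *Mapk14*, -0.0577 to 0.057 for *Mapkapk2*, -0.0266 to 0.0584 for *Zfp36*, -0.0214 to 0.10 for *Zfp36l1* and -0.0687 to 0.0605 for *Khsrp*. The cause of these turns was not tested. Same-numbered libraries did not deviate together (r = -0.0061 across genes, which are not independent replicates), so the numbers were not taken as pairs. Pairing by litter could not be tested, since the sources do not match libraries to litters. Among the 10 genes, *Ptgs2* had the fewest fragments, with about 73 to 184 fragments per library, and 2 libraries per genotype limit every test.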
